A study of Mus musculus with 18 samples.

Results

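The genes described here code for the subunits of the mitochondrial respiratory chain and of ATP synthase. They were chosen by mouse symbol: Ndufa, Ndufb, Ndufc, Ndufs and Ndufv genes with a number, Sdha to Sdhd, Uqcr genes, Cox4 to Cox8 genes, Atp5 genes, and the mt-Nd, mt-Cytb, mt-Co and mt-Atp genes of mitochondrial DNA. The choice gave 97 of the 23474 genes in the expression table, 84 coded in the nucleus and 13 in mitochondrial DNA. Complexes were assigned by symbol alone, and Ndufa4 and Ndufa4l2 were counted with complex I on that basis only. By complex there were 37 nuclear and 7 mitochondrial genes of complex I, 4 nuclear genes of complex II, 8 nuclear and 1 mitochondrial gene of complex III, 17 nuclear and 3 mitochondrial genes of complex IV, and 18 nuclear and 2 mitochondrial genes of ATP synthase. The Atp5 symbols also took in Atp5s, a factor rather than a classic subunit, and the pseudogene Atp5l-ps1, which was listed at 0 in 17 libraries and at 0.751 FPKM in liver ND 3. Cox4i1 and 11 other symbols that would match had no named row and were not analysed here.

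The libraries came from mRNA of liver and of epididymal white fat (eWAT), taken from male C57BL/6J mice (written C56BL/6J in the strain label), 17 weeks old, with 12 weeks on a diet begun at 5 weeks. Both tissues had 3 libraries for each of 3 groups, a total of 18: normal diet (ND), and high-fat diet in animals named prone (HP) or resistant (HR). The labels record no genetic change in any group, do not say how prone and resistant mice were told apart, and do not say that each library came from its own mouse. The p-values therefore measure the spread between these libraries, which may be technical in part.

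The respiratory chain passes electrons from NADH through complex I, or from succinate through complex II, to ubiquinone, then through complex III and cytochrome c to complex IV, which reduces oxygen. Complexes I, III and IV pump protons across the inner mitochondrial membrane, and ATP synthase lets them back to make ATP. Most subunits are coded in the nucleus and imported, while a few core subunits of every complex except II are transcribed inside the mitochondrion as part of long joint transcripts.

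Values are FPKM, which scale fragments by transcript length and library, so the absolute depth is unknown. Relative depth, from the smallest steps of low values, was 0.87 to 1.11 in liver against ND 2, and 0.93 to 1.08 against HR 3 in the 6 eWAT libraries with a clear step. Hepatocyte markers (Alb, Apoa1, Ttr and Serpina1a) summed to 12700 to 44000 FPKM in liver, with Alb listed at 0 in HP 3, and adipocyte markers (Adipoq, Fabp4, Plin1 and Cidec) to 3530 to 29600 FPKM in eWAT. Spermatid markers (Tnp1, Tnp2, Prm1 and Prm2) summed to 92400 FPKM in eWAT ND 1, 11200 in HR 2, 2280 in ND 3, 1740 in HP 1 and at most 128 in the other 5 eWAT libraries. In ND 1 and HR 2 the adipocyte sum was 3530 and 4760 FPKM, against at least 15000 in the other 7. Results in eWAT are therefore given over 9 libraries and over the 7 without ND 1 and HR 2. Epididymis markers (Lcn8, Gpx5 and Crisp1) summed to 15300 FPKM in eWAT ND 1. In HP 2, which stayed among the 7, they summed to 1170 FPKM, nearly all Crisp1. The remaining eWAT libraries had at most 9.88 FPKM. mt-Co1 was listed at 0 in liver HP 3 and at 29610 to 53659 FPKM in the other 8 liver libraries, so that zero was treated as missing.

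Promoters of 5 members are shown because these genes rose, fell or were not called in the liver results below and differ in the motifs they hold. They were picked with those results known. Each is the stretch of 120 bases before the RefSeq transcription start (GRCm38.p6), 5′ to 3′ on the gene's own strand. Capitals mark GCGCA followed by any base and GCGC, a motif that nuclear respiratory factor 1 is known to bind. Ndufb4 lies at chr16:37654369-37654488 on the minus strand and Sdha at chr13:74350241-74350360 on the minus strand. Sdhd lies at chr9:50603850-50603969 on the minus strand, Ndufv3 at chr17:31519995-31520114 on the plus strand, and Cox7a1 at chr7:30184051-30184170 on the plus strand.
Ndufb4: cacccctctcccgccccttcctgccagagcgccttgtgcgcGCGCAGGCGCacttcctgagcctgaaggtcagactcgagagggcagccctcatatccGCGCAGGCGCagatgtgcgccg
Sdha: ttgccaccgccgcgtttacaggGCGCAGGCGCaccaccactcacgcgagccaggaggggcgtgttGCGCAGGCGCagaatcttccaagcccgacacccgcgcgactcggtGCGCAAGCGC
Sdhd: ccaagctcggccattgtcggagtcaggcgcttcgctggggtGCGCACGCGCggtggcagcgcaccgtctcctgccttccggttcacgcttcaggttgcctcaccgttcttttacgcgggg
Ndufv3: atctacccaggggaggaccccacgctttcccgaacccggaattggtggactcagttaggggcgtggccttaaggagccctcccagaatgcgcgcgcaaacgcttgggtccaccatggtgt
Cox7a1: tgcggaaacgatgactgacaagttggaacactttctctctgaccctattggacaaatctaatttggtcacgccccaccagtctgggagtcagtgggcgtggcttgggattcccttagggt

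The motif starts 79 and 22 bases before the start of Ndufb4, with a further copy 191 bases before it, at 98, 55 and 10 bases in Sdha, and at 79 bases in Sdhd. RefSeq held promoters for 68 of the 84 nuclear members, 73 promoters in all, each of 300 bases from 250 before the start to 50 after it. On either strand, this NRF1 motif was present in 24.7% of the 73 member promoters and in 4.6% of all 32851 promoters of that length. CCGGAAGT, bound by GABP, was in 6.85% and 3.89%, and AAGATGGC, bound by YY1, in 13.7% and 2.75%. TGACGTCA, bound by CREB, was in 5.48% and 1.79%, and TCAAGGTCA, bound by estrogen-related receptors, in 2.74% and 0.423%. In the members' windows no copies of different motifs overlapped. Of the 52 matched members that rose in HP liver 12 held the NRF1 motif, as did 17 of all 68. Ndufb4, with 3 copies, rose there, Sdhd, with 1, fell, and Sdha, with 3, was not called. A match is a description of the letters and shows no binding.

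In liver, most subunit genes were higher in prone mice than in mice on normal diet. Of 90 members tested, 65 rose and 2 fell in HP (limma, adjusted p under 0.05), against 17.6% of all 10633 genes higher, 14.2% lower and 31.8% in either direction. The median log2 difference was 0.72 over the members and -0.02 over all genes. Of the calls over all genes 55.4% were higher, and 39.8% after rescaling to an equal sum over genes outside mitochondrial DNA, where 59 members were higher and 2 lower. In 75 members every HP library was above every ND library, and in 2 below, where 23.6% and 21.3% of all genes were so arranged. In bulk samples a different share of cells of a type and a different amount of RNA per cell cannot be told apart. Member calls numbered 48 without HP 2, 49 without ND 3, 52 without ND 1 and 56 with no filter on low values, all higher. Calls over all genes numbered 1727, 1948, 1872 and 2881 in that order, against 3378 in the main fit. With any other single liver library left out there were 65 to 73 member calls. With the replicate block 61 were higher and 1 lower; the calls of Sdhd, Uqcrc1, Ndufs3, Atp5o and Atp5k did not pass (limma adjusted p = 0.082, 0.0541, 0.0689, 0.0523 and 0.0593). The differences also went with transcript length, as described after the complexes.

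Complex I, which oxidizes NADH, had 29 of 37 nuclear genes higher and 1 lower, with a median of 0.75. Ndufv3, an accessory subunit of the NADH-binding module, had 61.8, 76.8 and 52.8 FPKM in ND, 146, 237 and 153 in HP, and 97.2, 57.9 and 79.6 in HR. Its HP libraries did not overlap with ND, and the log2 difference was 1.45 (SE 0.23, limma adjusted p = 0.0017). Ndufb4, an accessory subunit of the membrane arm, had 21.5, 32.1 and 27.6 FPKM in ND and 60.6, 89.0 and 63.2 in HP, a rise of 1.35 (SE 0.19). Ndufa3, another accessory subunit, rose by 1.34 from 146, 227 and 155 to 360, 583 and 400 FPKM. In both genes HP 2 was the highest library and every HP value lay above every ND value. Ndufs1, the largest iron-sulfur subunit of the NADH-oxidizing arm, went the other way, with 34.4, 19.4 and 39.6 FPKM in ND and 18.2, 7.84 and 15.0 in HP. The groups lay close but apart, and it fell by 1.14 (SE 0.34, limma adjusted p = 0.0261). That call was lost without ND 1, ND 3 or HP 2 (limma adjusted p = 0.0841, 0.098 and 0.107), and likewise when low genes were kept (0.0706).

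Complex II, succinate dehydrogenase, has 4 subunits, all coded in the nucleus, and they did not move as 1 group. Sdhb, the iron-sulfur subunit, rose by 0.65 (SE 0.14), from 111, 130 and 104 FPKM to 164, 218 and 166. Sdhc, a membrane anchor, rose by 0.56 (SE 0.11), from 72.2, 76.3 and 70.3 to 108, 105 and 111 FPKM. Sdhd, the other anchor, fell by 0.37 (SE 0.12, limma adjusted p = 0.0424), from 191, 204 and 175 to 167, 141 and 134 FPKM. Its fall did not pass when any single liver library except HP 1 was left out, with limma adjusted p from 0.0521 to 0.126, or when low genes were kept (0.0505). With the library number as a replicate block it also did not pass (-0.37, limma adjusted p = 0.082). Sdha, the flavoprotein that oxidizes succinate, had 213, 164 and 216 FPKM in ND and 184, 121 and 159 in HP, overlapping groups and no call (log2 difference -0.36, limma adjusted p = 0.146).

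Complex III, which passes electrons from ubiquinol to cytochrome c, had 6 of 8 nuclear genes higher, with a median of 0.66. Uqcrq, a small subunit beside cytochrome b, had 218, 322 and 220 FPKM in ND, 613, 893 and 668 in HP, and 326, 242 and 304 in HR. HP stood apart from both other groups, and the rise over ND was 1.52 (SE 0.20, limma adjusted p = 0.000609). The small subunits Uqcr11 and Uqcr10 rose by 1.11 and 0.99, the Rieske iron-sulfur protein Uqcrfs1 by 0.55 and the core protein Uqcrc1 by 0.39. The other core protein, Uqcrc2, had 177, 147 and 186 FPKM in ND and 180, 190 and 183 in HP (0.12, limma adjusted p = 0.462).

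Complex IV, cytochrome c oxidase, had the highest median of the complexes, 1.03, with 10 of 11 tested nuclear genes higher. The other 6 of its 17 nuclear genes were below 1 FPKM in most liver libraries. Cox5b, a subunit on the matrix side, had 232, 217 and 113 FPKM in ND, 348, 499 and 406 in HP, and 88.1, 72.6 and 163 in HR. It rose by 1.21 (SE 0.32, limma adjusted p = 0.0162), a call lost without ND 3 or HP 2 (limma adjusted p = 0.0603 and 0.0684) and after the length and GC correction described below. Cox8a, the general form of the smallest subunit, rose by 1.14 (SE 0.19), from 160, 207 and 145 to 333, 430 and 364 FPKM. Cox7a2l, which takes part in joining complexes into supercomplexes, had 82.0, 96.1 and 72.1 FPKM in ND and 81.1, 67.9 and 60.6 in HP (-0.25, limma adjusted p = 0.212). It was the tested nuclear gene of complex IV that did not rise, and with quantile normalization it was called lower, at -0.41 (limma adjusted p = 0.0414).

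ATP synthase had 12 of 17 tested nuclear genes higher and none lower, with a median of 0.61. Atp5j2, subunit f of the membrane part, had 93, 113 and 79.3 FPKM in ND and 169, 244 and 179 in HP, a rise of 1.04 (SE 0.18, limma adjusted p = 0.00236). Atp5e, subunit epsilon, rose by 0.99 from 280, 390 and 271 to 535, 789 and 549 FPKM, and Atp5l, subunit g, by 0.95 from 279, 291 and 222 to 489, 561 and 473. In all 3 genes HP lay above ND without overlap. The genes of the catalytic head, Atp5a1 for subunit alpha and Atp5b for beta, were not called, at -0.27 and -0.18 (limma adjusted p = 0.16 and 0.434), and Atp5a1 was called lower with quantile normalization, at -0.46. Atp5c1 for the central stalk gamma was at 0.27 (limma adjusted p = 0.077). Of the 3 genes for the same c-ring protein, Atp5g1 rose by 0.73, Atp5g2 rose by 0.53 and Atp5g3 was at 0.39 (limma adjusted p = 0.0616).

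**Figure D1:**
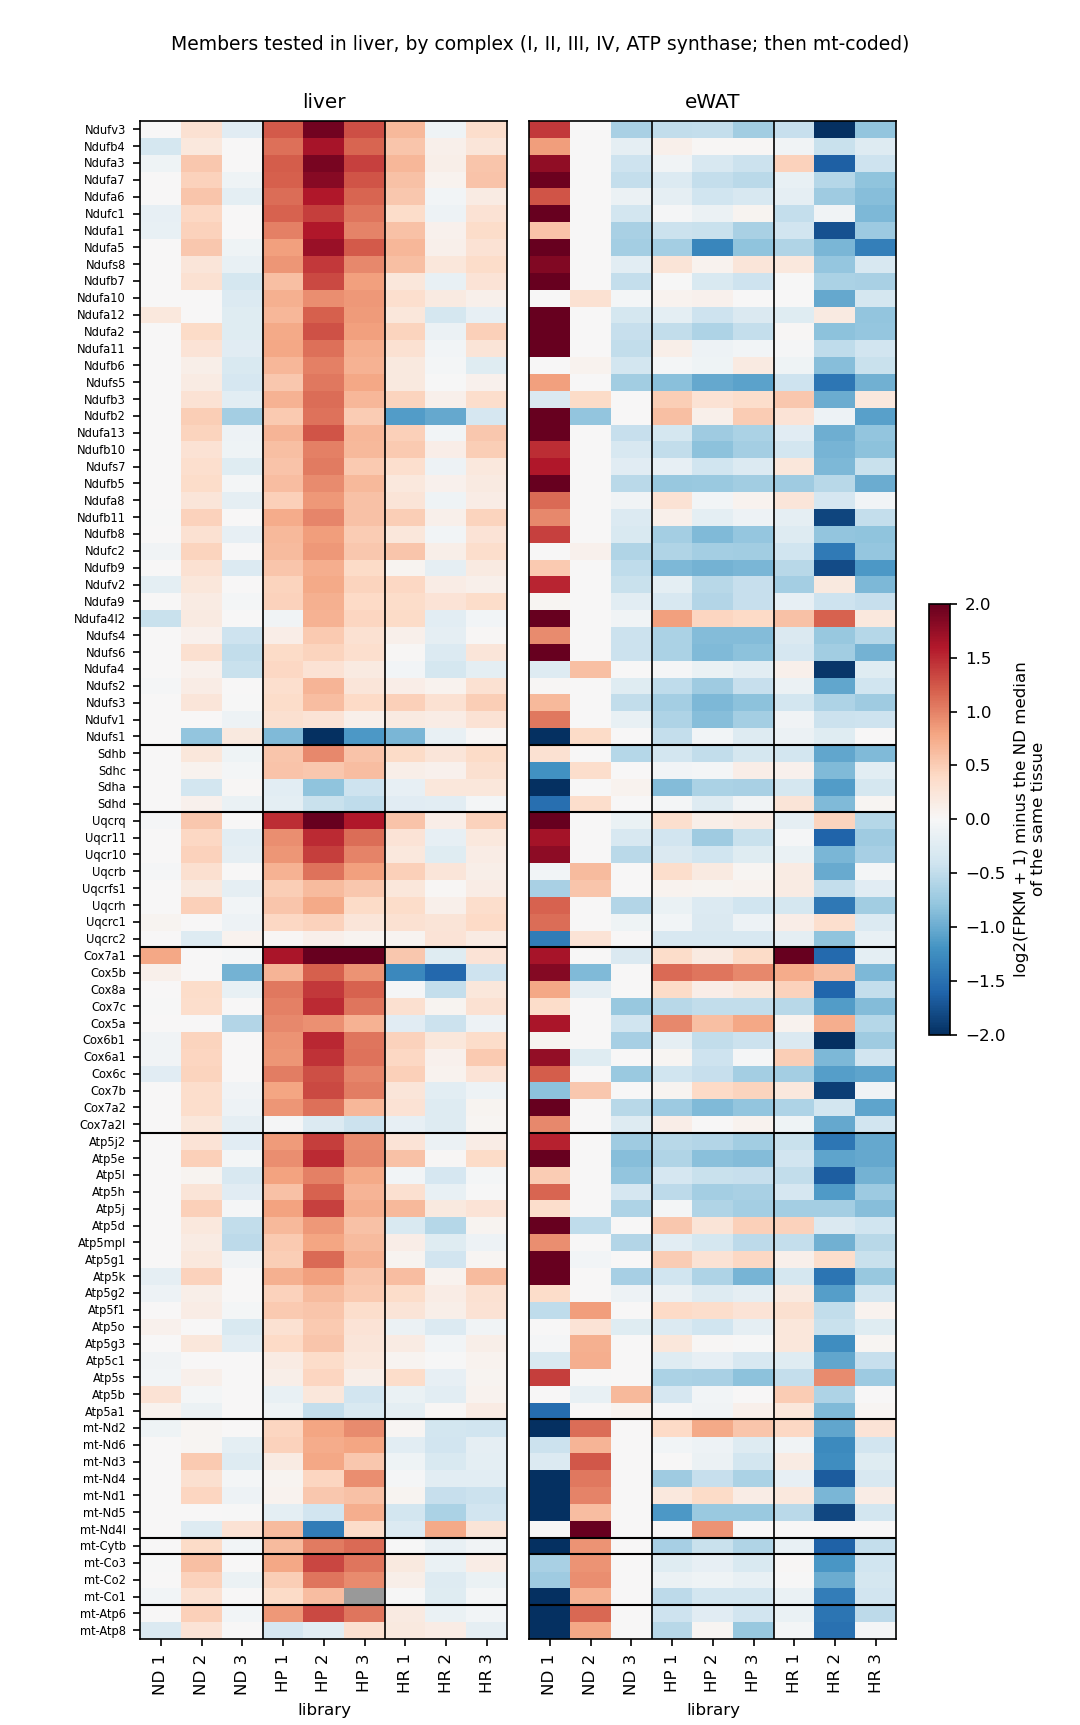
Colour gives log2(FPKM + 1) of each member tested in liver (rows) in each library (columns), minus the ND median of its tissue; lines separate groups and complexes, and grey is the missing mt-Co1 value. The 3 liver HP columns are mostly red, with Ndufs1, Sdhd and Cox7a2l among the blue rows, while eWAT ND 1 and HR 2 stand apart from the other eWAT columns.

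**Figure D2:**
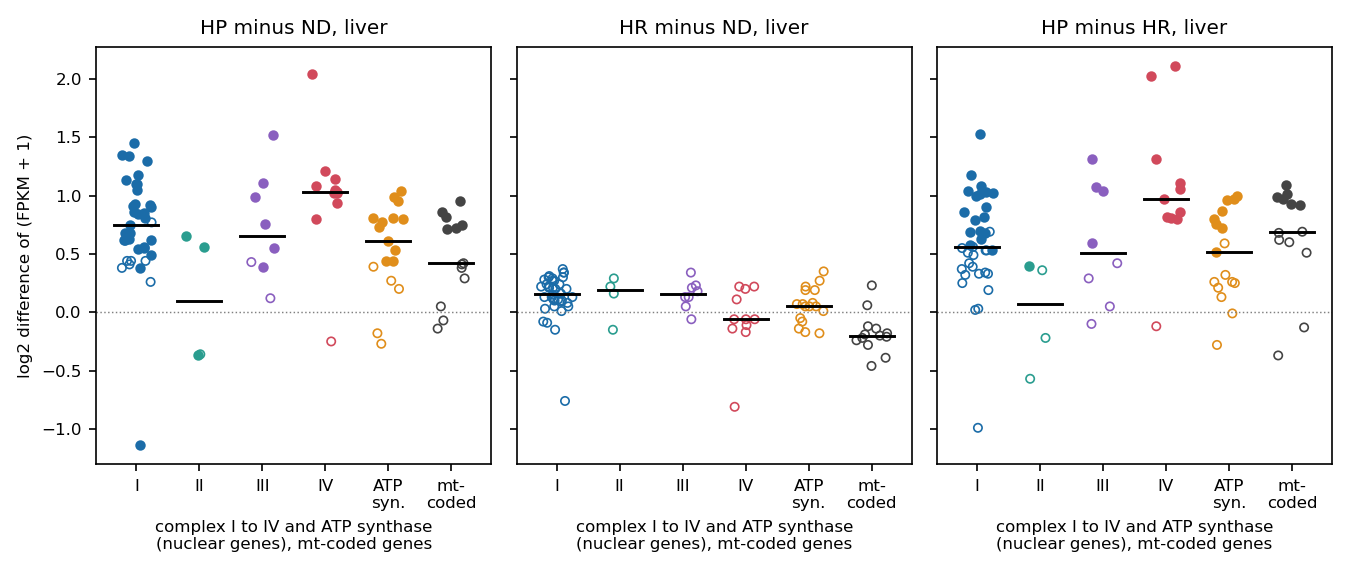
Each point is a member, plotted by its log2 difference (vertical axis) and complex (horizontal axis) in the 3 liver comparisons; filled points had a limma adjusted p under 0.05 and bars are medians. Complex IV has the highest nuclear median for HP against ND, 1.03, and no point is filled for HR against ND.

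The liver differences depended on transcript length. Subunit genes are short, with a median principal transcript of 750 nt against 2683 nt over all genes tested. Across 10553 genes the HP minus ND difference had a Spearman correlation of -0.503 with length and 0.266 with GC content, and across the 90 members of -0.456 and 0.314. These are descriptions across genes measured in the same libraries. Among genes of 500 to 700 nt, 24 of 26 members rose, at a median of 0.88, and so did 132 of 212 other genes (62.3%), at a median of 0.70. From 1000 to 1500 nt the counts were 10 of 15 members, at a median of 0.55, and 421 of 1171 other genes (36%), at 0.30. Members were thus above other genes of their length in both classes, by less than their distance from all genes.

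After each library was corrected for smooth trends in principal transcript length and GC content, 17 members were higher and 6 lower in HP. Their median was 0.12. Of all 10633 genes 1107 were higher and 1292 lower, at a median of -0.04. Of the members' 67 original calls 19 were made again in the same direction. Ndufv3 stayed at 1.14 (limma adjusted p = 0.00218), Cox7a1 at 1.13, Ndufb4 at 0.86, Ndufa10, an accessory subunit, at 0.82, Sdhc at 0.67 and Uqcrq at 0.56 (limma adjusted p = 0.00307). Ndufs1 remained lower at -1.08 and Sdhd at -0.70 (limma adjusted p = 0.0395 and 0.00315), and Cox7a2l became a call at -0.66. The rises of Cox5b, at 0.69, Cox8a, at 0.28, and Atp5l, at 0.25, did not pass after correction (limma adjusted p = 0.109, 0.133 and 0.0929). Nor did those of Sdhb, at 0.19, Uqcr11, at 0.17, Atp5e, at 0.10, and Uqcr10, at 0.09 (limma adjusted p = 0.13, 0.196, 0.403 and 0.494). Uqcrh, the hinge protein of complex III, changed sign, from 0.43 to -0.29 (limma adjusted p = 0.0482). mt-Atp8 and mt-Nd3, among the shortest members at 204 and 348 nt, were called lower after correction, at -1.15 and -0.51. The outcome turned on which transcript gave the length. With the longest coding transcript 15 members were higher and 8 lower, at a median of 0.07, against 1040 and 1192 of all genes. With the middle one 59 members were higher and 2 lower, at 0.54, against 1816 and 1166 of all genes. Both lengths were added after the data were seen. Which part of the rise follows transcript length for technical reasons was not tested.

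**Figure D3:**
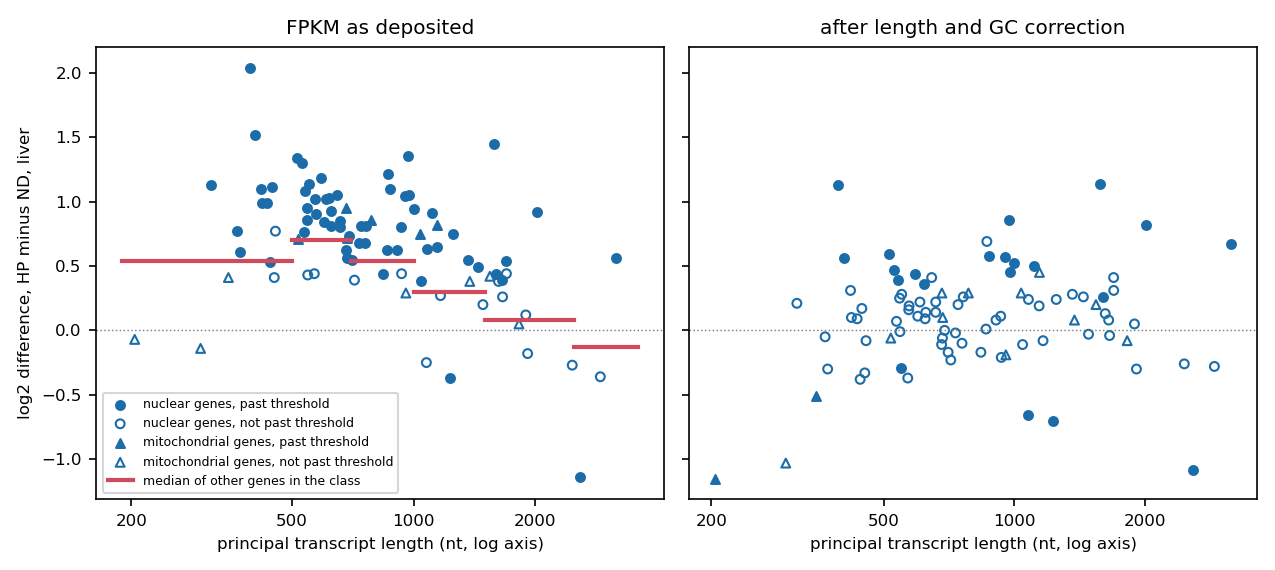
Points are the 90 members tested in liver, by principal transcript length (horizontal, log axis) and log2 difference of HP minus ND (vertical), before (left) and after (right) the length and GC correction; filled points had a limma adjusted p under 0.05, and red bars on the left give the median of other genes in each length class. The red bars fall from 0.70 at 500 to 700 nt to -0.13 at 2500 to 5000 nt, and the members' median goes from 0.72 to 0.12.

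Prone and resistant mice, which had the same diet label, also differed in liver. Of 90 members 47 were higher in HP than in HR and none lower (limma), against 7.23% of all genes higher, 3.97% lower and 11.2% in either direction, and the median difference was 0.63. Complex IV again had most calls for its size, 10 of 11. Cox5b was higher by 2.02 (SE 0.32, limma adjusted p = 0.00605), with HR at 88.1, 72.6 and 163 FPKM as given above. Ndufb2, an accessory subunit of complex I, had 97.9, 146 and 96.7 FPKM in HP and 30.9, 32.9 and 53.9 in HR, higher by 1.53. Uqcrq and Cox8a were each higher by 1.31, Ndufv3 by 1.18, Ndufa6 by 1.08, Atp5l by 1.00, Atp5d, subunit delta, by 0.97 and Sdhc by 0.40. The Ndufs1 difference was -0.99, from 17.8, 30.9 and 34.9 FPKM in HR, and was not called. This comparison shares its HP libraries with the one before. The count was 12 without HR 2, 14 without HP 2, 28 without HR 3 and 31 without HP 3, and 25 with no filter on low values. Calls over all genes numbered 261, 233, 472, 468 and 585 in that order, against 1191 in the main fit. After length and GC correction with principal transcripts 20 members were higher and 4 lower, against 381 and 544 of all 10633 genes. Cox5b at 1.61, Cox7a1 at 1.32 and Ndufv3 at 0.98 led there. With middle transcripts 45 members were higher and 0 lower, at a median of 0.53, against 774 and 439 of all genes.

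Resistant mice and mice on normal diet did not differ in any member past the threshold. Of 90 members 0 were called (limma; 8 had an unadjusted p under 0.05), against 3.25% of all genes (2.29% higher and 0.969% lower), and the median was 0.10. The smallest p values belonged to Uqcrc1, at 0.34, and Ndufs3 of complex I, also at 0.34 (limma adjusted p = 0.126 and 0.151). Ndufb2 and Cox5b lay on the other side, at -0.76 and -0.81 (limma adjusted p = 0.186 and 0.19), and both varied widely in ND. A missed threshold with 3 libraries a group does not show that the groups were alike.

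The 13 genes of mitochondrial DNA rose less evenly. In HP against ND 6 rose: mt-Atp6 by 0.95, mt-Co3 by 0.86, mt-Cytb by 0.82, mt-Nd2 by 0.75, mt-Co2 by 0.72 and mt-Nd6 by 0.71 (limma adjusted p from 0.00598 to 0.0274). mt-Cytb, the core electron carrier of complex III, had 11182, 14555 and 10819 FPKM in ND and 17256, 22906 and 24572 in HP, with no overlap. mt-Atp6, the proton channel subunit, had 15035, 20823 and 14502 in ND and 27483, 37489 and 31489 in HP. mt-Nd5, the longest mitochondrial gene of complex I, had 8289, 8280 and 8244 FPKM in ND and 7233, 6369 and 13763 in HP, so 1 library alone was higher, and its difference was 0.05 (limma adjusted p = 0.883). mt-Atp8, whose reading frame overlaps mt-Atp6, was at -0.07. The same 6 genes were higher in HP than in HR, by 0.92 to 1.09. The calls of mt-Co2 and mt-Co3 against ND were lost without ND 1, ND 3 or HP 2, that of mt-Co2 also without HP 3, and that of mt-Nd2 without ND 1. With quantile normalization mt-Nd2, mt-Cytb, mt-Co2 and mt-Co3 did not pass, at 0.34, 0.19, -0.0 and 0.27. With no filter on low values only mt-Nd6 passed, and after length and GC correction with principal or longest transcripts none of the 6 did.

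Summed without mt-Co1, mitochondrially coded FPKM in liver was 161186, 219871 and 167729 in ND, 203467, 265033 and 287723 in HP, and 185038, 161009 and 155080 in HR. HP 1 lay below ND 2, so the sums of HP and ND overlapped. The nuclear members summed to 12176, 14285 and 10932 FPKM in ND, 18539, 23411 and 18511 in HP, and 13987, 11600 and 13757 in HR, with HP above both. mt-Nd4l was listed at 0 to 3.42 FPKM in every library, beside at least 362 FPKM for mt-Nd4, whose reading frame overlaps it, so its values say little. In eWAT, mitochondrially coded genes took 11.1% to 24.4% of all FPKM in 7 libraries, but 1.72% in ND 1 and 5.81% in HR 2, the libraries rich in spermatid transcripts.

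**Figure D4:**
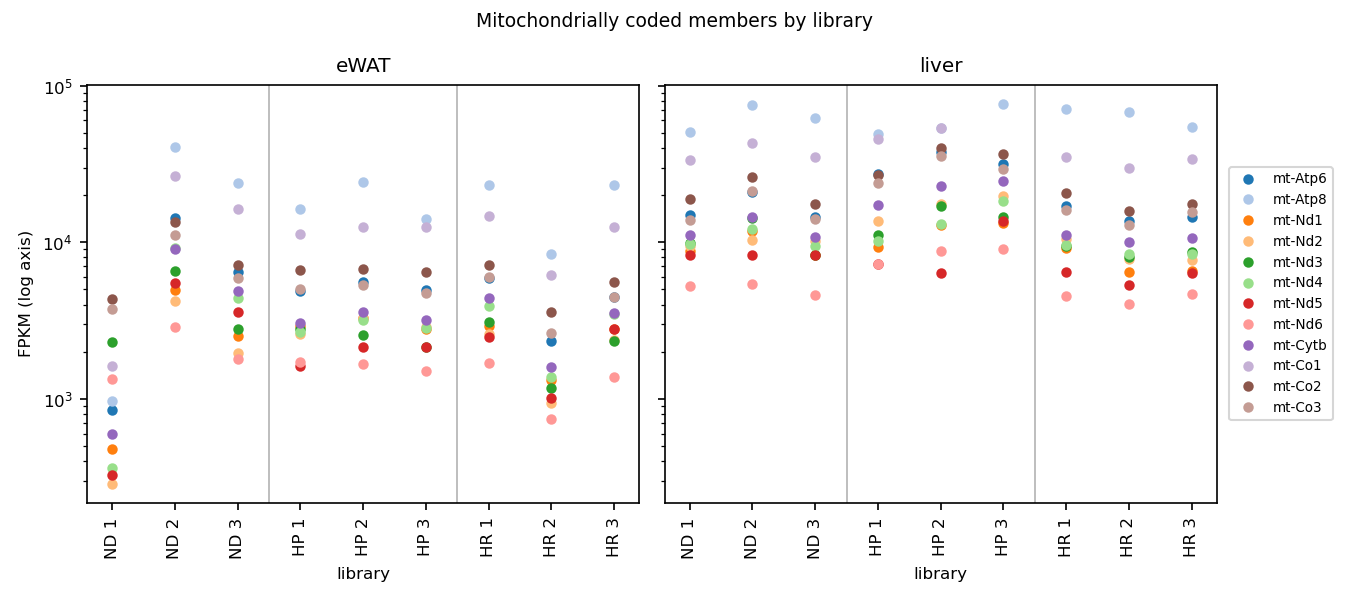
Points are FPKM (log axis) of 12 mitochondrially coded genes in each library of eWAT and liver; mt-Nd4l is left out, and so is the zero of mt-Co1 in liver HP 3. The eWAT libraries ND 1 and HR 2 lie below the rest of their tissue for most genes, and mt-Nd5 reaches 13763 in liver HP 3 against 7233 and 6369 in the other HP livers.

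Several subunits have a second gene used in particular tissues. Cox6b2, Cox7b2 and Cox8c, forms known from testis, had 1076, 201 and 1651 FPKM in eWAT ND 1 and 177, 143 and 319 in HR 2. In ND 3 and HP 1 they had 10.4 to 43.5 FPKM, and in the other 5 eWAT libraries at most 4.28. These are the libraries with the highest spermatid sums, in the same order as the Cox8c values. Cox7a1 and Cox8b, forms of heart, muscle and brown fat, reached 64.9 and 56.1 FPKM in eWAT HR 1, where Ucp1 had 32.5 FPKM and Cidea 22.4, against at most 5.05 for Ucp1 elsewhere in eWAT. In eWAT ND 1 they had 34.7 and 40.1 FPKM, with Ucp1 at 4.43 and Cidea at 13.6. The part of these cells in the comparisons was not tested.

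In liver, Cox7a1 had 3.57, 1.68 and 1.63 FPKM in ND and 7.29, 18.4 and 13 in HP, a rise of 2.04 (SE 0.32, limma adjusted p = 0.00156). The summed level of 5 skeletal muscle markers (Atp2a1, Ckm, Myh4, Tnnc2, Tnnt3) was 98.9 FPKM for HP 2, 19.9 for HP 3, 0.12 for HP 1 and at most 0.955 in the other livers. The muscle form Cox6a2 had 1.42 and 0.535 FPKM in HP 2 and HP 3 and 0.127 in HP 1. Cox7a1 in HP 1, where the muscle sum was 0.12 FPKM, lay above all ND and HR livers. Of 3 brown fat markers Ucp1 was listed at 0 in every liver library and Dio2 was at most 0.0108 FPKM. Cidea, the third, had 0.26, 0.113 and 0 FPKM in ND, 15.4, 7.66 and 6.11 in HP, and 3.05, 0.516 and 3.91 in HR, so HP lay above both other groups. The part of either marker list in the rise of Cox7a1 was not tested. Ndufa4l2, a hypoxia-linked relative of Ndufa4, was at most 2.14 FPKM in liver and 5.48 to 85.9 in eWAT, highest in ND 1. Cox4i2, the lung form of subunit 4, was below 0.22 FPKM in liver and 0.729 to 2.83 in eWAT.

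**Figure D5:**
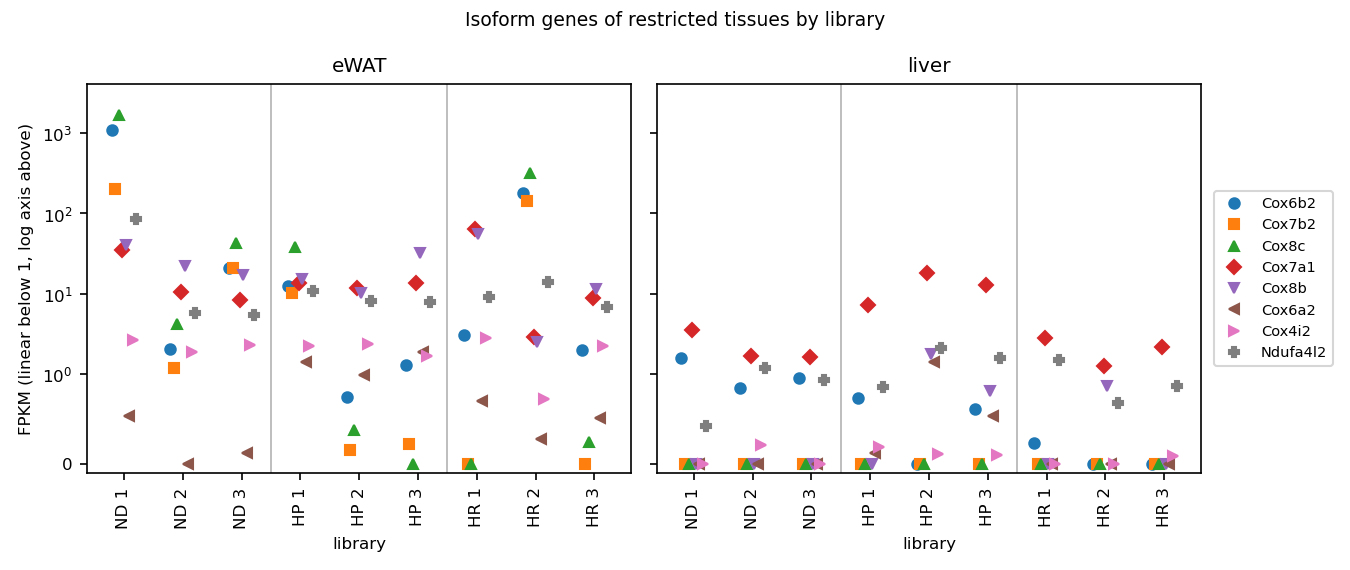
Points are FPKM (linear below 1, log axis above) of 8 tissue-restricted isoform genes in each library. Cox6b2, Cox7b2 and Cox8c peak in eWAT ND 1 and HR 2, Cox7a1 and Cox8b in eWAT HR 1, and Cox7a1 is highest in the 3 liver HP libraries.

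In eWAT no member was called over 9 libraries in any comparison (limma). For HP against ND 0 of 94 members passed (5 at an unadjusted p under 0.05), against 2.11% of all genes (2.07% higher and 0.0416% lower). For HR against ND and HP against HR 0 passed (3 and 0 unadjusted), against 0.0% of all genes in both. A count of 0 here does not show that the groups were alike. The median for HP against ND was -0.39. After length and GC correction it was 0.20 with principal, 0.26 with longest and -0.33 with middle transcripts.

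Over the 7 eWAT libraries 7 members fell and 1 rose in HP against ND, of 94 tested (limma), against 7.4% of all genes lower, 15.7% higher and 23.1% in either direction. After length and GC correction 27 of 94 members fell and 2 rose with principal transcripts, against 1357 and 2622 of all 13054 genes. With middle transcripts 14 fell and 1 rose, against 1170 and 2402. With quantile normalization 19 fell and 2 rose, against 1177 and 1704. The main fit, where the share of members that fell was close to that of all genes, gave the values below. Sdha had 262 and 274 FPKM in ND, 143, 168 and 168 in HP and 204 and 206 in HR, 3 groups without overlap, and fell by 0.75 (SE 0.12, limma adjusted p = 0.00524). It also fell with any one library left out. Ndufv1, the flavin-binding subunit that oxidizes NADH, fell by 0.64, from 102 and 92.2 to 66.5, 56.5 and 63.3 FPKM. Uqcrc2 fell by 0.46, Atp5s by 0.70, mt-Nd5 by 1.18, mt-Nd4 by 1.14 and mt-Cytb by 1.03. These mitochondrial genes also differed between the 2 ND libraries themselves: mt-Cytb had 9101 FPKM in ND 2, 4864 in ND 3, and 3064, 3563 and 3194 in HP. Cox5a, a matrix-side subunit of complex IV, rose by 0.98, from 55.5 and 42.1 to 109, 85.1 and 95.2 FPKM, and was also higher in HP than in HR (1.03, limma adjusted p = 0.0486). Macrophage markers (Adgre1, Cd68, Itgax and Ctss) summed to 1390 to 1830 FPKM in these HP libraries, 71.9 and 91.2 in ND and 514 and 624 in HR; their part in these differences was not tested.

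The count of 8 was 30 without ND 3, 4 without ND 2, 2 without HP 1, 3 without HP 2 and 1 without HP 3; where ND lost a library, the lone sample was assumed to vary like the other groups. For HR against ND 0 of 94 members passed over 7 libraries (10 at an unadjusted p under 0.05, limma), against 4.14% of all genes (3.85% higher and 0.291% lower), with 12 lower without ND 3 and 1 higher without HR 3. For HP against HR the 1 call, Cox5a, stood against 6.46% of all genes (4.21% higher and 2.25% lower) and was lost without HP 1, HP 2, HP 3, HR 1 or HR 3; without ND 2 or ND 3 there were 3 calls.

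The change from ND to HP differed between the tissues. Over 16 libraries (9 of liver and 7 of eWAT) the liver change exceeded the eWAT change in 59 of 96 members and fell short in none (limma test of the difference), against 11.2% of all genes higher, 16.7% lower and 27.9% in either direction. The median difference between the tissues' changes was 0.93. By complex the counts were 27 of 37 nuclear genes in complex I, 2 of 4 in II, 7 of 8 in III, 6 of 17 in IV and 9 of 17 in ATP synthase, with 8 of 13 mitochondrial genes. Ndufa5 and Ndufv3 of complex I led the nuclear genes, at 1.69 and 1.68, and mt-Cytb and mt-Atp6 were each at 1.85. The latter calls were lost with no filter on low values (limma adjusted p = 0.0644 and 0.147) and with quantile normalization, at 0.18 and 0.39 (limma adjusted p = 0.571 and 0.132). All 4 were lost with all 18 libraries (limma adjusted p from 0.0849 to 0.701). The count was 34 without eWAT ND 2 and 7 with all 18 libraries. After length and GC correction 49 were higher and 2 lower, at a median of 0.53.

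Other genes of the pathway in HP liver were counted by list, beside the 17.6% of all genes higher and 14.2% lower. These counts, and those of the next paragraph, were made without the length and GC correction. Among all genes outside the members, 132 of 212 rose at 500 to 700 nt. Over 5000 nt, 60 of 1604 rose and 462 fell. The part of transcript length in the changes of these lists was not tested. Of 44 tested assembly factors, which build the complexes without staying in them, 18 rose and 1 fell, at a median of 0.34. Uqcc2, an assembly factor of complex III, rose by 1.54 from 22.1, 26.1 and 17.4 to 53.9, 77.0 and 65.4 FPKM, with no overlap. Sdhaf1, for complex II, and Pet100, for complex IV, rose by 1.22 and 1.17, while Nubpl, which delivers iron-sulfur clusters to complex I, fell by 0.85. Of 11 electron carriers and subunits outside the symbol rule 2 rose (Coq7 by 0.82 and Ndufab1 by 0.76) and 2 fell, shares near those of all genes. The latter were Etfdh, which passes electrons from fat oxidation to ubiquinone (-0.97), and Gpd2 of the glycerol phosphate shuttle (-0.70). Of 12 nuclear regulators only Nfe2l2 was called, a rise of 0.49. The coactivator Ppargc1a was at -0.52 (limma adjusted p = 0.0542), and Nrf1, Gabpa and Esrra at -0.23, -0.40 and 0.27. Of 14 genes of mitochondrial DNA copying and transcription 5 rose, among them the RNA polymerase Polrmt (0.77), Slirp (0.79) and Ssbp1 (0.65), and the packaging factor Tfam fell by 0.64.

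Of 14 citric acid cycle genes 3 were higher (Idh2 by 0.79, Cs by 0.55, Mdh2 by 0.44) and 3 lower (Sucla2 by -0.73, Dlst by -0.57, Ogdh by -0.46), also near the shares of all genes. Of 6 uncoupling proteins and carriers 3 rose and 1 fell. Ucp2 rose by 1.61, from 9.19, 11.8 and 14.6 to 34.6, 38.7 and 40.1 FPKM, and the ADP/ATP carriers Slc25a4 and Slc25a5 by 0.89 and 0.58. Slc25a14 fell by 0.61. Among 12 genes of membrane organisation Tomm22 rose by 0.68, and the fusion genes Opa1 and Mfn1 fell by 0.62 and 0.58. In HP against HR 10 of 44 assembly factors were higher and none lower, against 7.23% and 3.97% of all genes. Also higher were 2 genes of mitochondrial DNA copying and transcription, 2 uncoupling proteins or carriers and 1 membrane gene. A regulator and a citric acid cycle gene were lower. In HR against ND Sdhaf4 was the pathway gene called, against 3.25% of all genes. In eWAT over 7 libraries the 44 assembly factors had 0 higher and 1 lower in HP against ND, against 15.7% and 7.4% of all genes. Higher there were 2 regulators, 2 uncoupling proteins or carriers, 2 membrane genes and 1 electron carrier or subunit. Lower were 2 electron carriers or subunits, 2 citric acid cycle genes, 1 regulator, 1 uncoupling protein or carrier and 1 gene of mitochondrial DNA copying and transcription.

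The genes outside the group whose levels varied most like complex I were named by their mean Pearson correlation over the 9 liver libraries with the 30 called nuclear complex I genes. They were Ubl5 (0.898), Mien1 (0.896), Naa10 (0.895), Ccdc107 (0.894) and Mcee (0.893). Their principal transcripts, of 501 to 962 nt, were as short as those of the members.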

How the data were processed

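The authors deposited 1 table of FPKM values for 23474 gene identifiers in 18 libraries. TRIzol extraction and TruSeq mRNA libraries are recorded per the labels' protocols. CASAVA 1.8.2, STAR 2.4.0 and Cufflinks 2.1.1 are named in the submitters' processing notes. The sources used here do not give the genome build, annotation or strandedness, so overlapping genes, pseudogene copies and antisense genes cannot be told apart. Names, lengths and GC content came from GENCODE M21 (22671 identifiers named, 803 not), and promoters from RefSeq, GRCm38.p6.

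limma 3.58.1 (R 4.3.3) tested differences in log2(FPKM + 1), two-sided and with a variance trend, for genes of at least 1 FPKM in at least 3 libraries. Benjamini-Hochberg adjustment ran over all genes tested, at 0.05. Fold changes on this scale understate those of low genes. Groups came from the titles, and the groups of a tissue shared 1 fit. A single 0 where every other library of the tissue had at least 10 FPKM was set to missing (3 values). Depth is unknown, so no counting interval is given. The fits were tested on simulated data.

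Members and lists were chosen with earlier results of these data known. Named genes were, per complex and comparison, up to 3 called in each direction by size or, with none called, the 2 smallest p, plus the mitochondrial genes, complex II and the isoform families. Other members named (such as Ndufa10, Uqcrc2, Uqcrfs1, Uqcrh, Atp5a1 and Atp5b) were chosen after their values were seen. Alternatives were a pseudocount of 0.1, no filter, quantile normalization, rescaling, length and GC correction (loess, span 0.3), the replicate block and leaving out each library. The lengths of the longest and the middle coding transcript were added after seeing the data. Deviations from the group means of same-numbered ND and HP liver libraries had correlations of 0.174, 0.453 and 0.119. Differently numbered liver libraries of different groups had -0.289 to 0.339, so the 0.453 of ND 2 with HP 2 lay above that range. Over 9 eWAT libraries same-numbered ones had -0.843 to 0.625 and others -0.796 to 0.865. Between liver and eWAT the ranges were -0.236 to 0.256 and -0.257 to 0.28. Whether the numbers mark pairs cannot be told from these values. Blocked values stand beside the calls they change in liver HP against ND. The labels do not state a pairing, and the main fits did not take the numbers as pairs (ND with HR liver -0.347 to 0.0157, HP with HR liver -0.353 to -0.146). In the other comparisons the block was run as an alternative, and only its counts of calls are given. Figures used matplotlib 3.10.9.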

Additional observations from a re-analysis of the deposited data

Results flagged for a closer look

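The change from ND to HP differed between liver and eWAT, by a limma test of the difference itself over 16 libraries, in 59 of 96 members. In each of those members the liver change was the higher one. In complex I the difference was 1.69 for Ndufa5, 1.68 for Ndufv3 and 1.49 for Ndufa7, and in complex II it was 0.77 for Sdhb and 0.73 for Sdhc. In complex III it was 1.47 for Uqcr11, 1.24 for Uqcrq and 1.03 for Uqcr10, and in complex IV 1.33 for Cox7a2, 1.21 for Cox7c and 1.15 for Cox6c. In ATP synthase it was 1.33 for Atp5e, 1.3 for Atp5j2 and 1.25 for Atp5h. Among genes of mitochondrial DNA it was 1.85 for both mt-Atp6 and mt-Cytb, 1.55 for mt-Co3, 1.52 for mt-Nd4, 1.3 for mt-Co2, 1.24 for mt-Nd5 and 1.19 for both mt-Nd6 and mt-Co1. With all 18 libraries every gene named here except Cox7c lost its call (limma adjusted p from 0.057 to 0.993). With no filter on low values the genes of mitochondrial DNA except mt-Nd6 lost theirs (limma adjusted p from 0.0644 to 0.593), as did Sdhb (0.0565). With quantile normalization Sdhb (0.0504), mt-Atp6, mt-Cytb, mt-Nd4, mt-Co1, mt-Co2 and mt-Co3 did not pass (limma adjusted p up to 0.571). Sdhb also lost its call after correction with principal or longest transcripts (limma adjusted p = 0.0626 and 0.0666). It did so when 1 library was left out in 8 cases, liver ND 1, ND 3, HP 2 or HR 3, or eWAT ND 2, HP 1, HP 2 or HP 3 (limma adjusted p from 0.0509 to 0.165). Uqcr10 lost its call with longest transcripts (0.0551) and without liver ND 1, ND 3 or HP 2, or eWAT ND 2 or HP 2 (limma adjusted p from 0.0561 to 0.101). Without eWAT ND 2 the calls of Cox6c, Atp5e, mt-Nd5 and mt-Co2 were also lost (limma adjusted p = 0.0663, 0.0766, 0.0977 and 0.0787). So were those of mt-Nd5 without eWAT HP 1 or after rescaling (0.0547 and 0.0562), mt-Co1 without liver HP 2 (0.0531) or with its zero kept (0.519), and mt-Nd6 with longest transcripts (0.09), all limma adjusted p. The macrophage marker sum was 1390 to 1830 FPKM in eWAT HP and 19.5 to 34.4 in liver HP; its part in the difference was not tested.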

How the results depend on the processing

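In liver HP against ND, 23 members were called after length and GC correction with principal or with longest transcripts (median 0.12 and 0.07). The median was 0.54 with middle transcripts and 0.49 with quantile normalization. Rescaling to an equal sum over genes outside mitochondrial DNA took the median of all genes from -0.02 to -0.14 there, and in 9 eWAT libraries from 0.09 to 0.32 for HP against ND and from 0.13 to 0.35 for HR against ND. HP against HR had 25 calls with no filter, and 24 after correction with principal or with longest transcripts (median 0.17 and 0.13). With middle transcripts HP against HR had 45 calls, all higher (median 0.53). Leaving out single libraries gave 12 to 55 calls there (12 without HR 2, 14 without HP 2). Over 9 eWAT libraries the median became 0.2 and 0.26 for HP against ND and -0.13 and 0.0 for HR against ND after correction with principal and longest transcripts.

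Over 7 eWAT libraries HP against ND had 5 calls with no filter, 21 with quantile normalization and 16 rescaled. After correction with principal, longest and middle transcripts there were 29, 32 and 15. In the same order 3, 19, 14, 27, 30 and 14 of these calls were lower and the rest higher. Leaving out single libraries gave 1 to 30 calls (30 without ND 3, 1 without HP 3) and medians from -0.48 to 0.01. HR against ND had 1 and 2 calls after correction with principal and longest transcripts, 0 to 12 with single libraries left out (12 without ND 3), and medians from -0.51 to -0.03. HP against HR had 0 with a pseudocount of 0.1 or no filter, 2 with quantile normalization, 5, 6 and 2 after the corrections, and 0 to 3 with single libraries left out. For the difference between tissues there were 7 calls with all 18 libraries (median 1.14), 34 to 68 with single libraries left out (medians 0.7 to 1.18), and medians of 0.53 and 0.52 after correction with principal and longest transcripts.

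Some single genes changed sign. In liver HP against ND, mt-Nd6 was at -0.06 after correction, and with longest transcripts Uqcr10 and Atp5e were at -0.05, mt-Nd6 at -0.19 and mt-Co2 at -0.02, with mt-Co2 at -0.0 under quantile normalization. In the difference between tissues, mt-Nd5 and mt-Co1 were at -0.02 and -0.04 with all 18 libraries, mt-Co2 and mt-Co3 at -0.38 and -0.16 under quantile normalization, and mt-Co1 at -4.01 with its zero kept. With single libraries left out, the log2 difference in the summed mitochondrially coded FPKM ran from -0.21 to 0.0 for HR against ND in liver. In 9 eWAT libraries it ran from -0.76 (without ND 1) to 0.8 for HP against ND, from -0.99 to 0.56 for HR against ND, and from -0.17 (without HR 2) to 0.49 for HP against HR. The cause was not tested.

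With a replicate block the calls were 62 and 44 in liver, 4 and 0 for HP against ND and against HR in 7 eWAT libraries, and 62 for the difference between tissues.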
